A study of Mus musculus with 6 samples.

Results

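The genes described here are 10 factors that fire replication origins, taken by name from the gene tables. They are the kinase pair Cdc7 and Dbf4, the assembly factors Topbp1 and Recql4, the helicase subunits Cdc45, Gins1, Gins2, Gins3 and Gins4, and the polymerase link Wdhd1. All 10 are among the 33924 gene symbols of the tables, and all 10 passed the filter on low counts that left 14250 genes for testing. The study compared RNA from E14 mouse embryonic stem cells labelled Rif1-KO (3 libraries) with RNA from E14 cells labelled control or WT (3 libraries), to see what loss of Rif1 does to gene expression. For both groups the labels give 2i medium on 0.1% gelatin, a treatment field of day 0, and a protocol with 0.1 µM 4-hydroxytamoxifen (4-OHT) for 2 days followed by 1 day without it. In the headers of the tables, however, the Rif1-KO columns are named with TAM and the control columns with 2i. Whether the control cells received 4-OHT and whether the media matched is thus not settled by these sources, and an effect of either cannot be told apart from the genotype. The labels give neither the number of clones nor the way in which Rif1 was disrupted.

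An origin is licensed when the MCM helicase is loaded onto DNA in an inactive form. To fire it, the kinase formed by CDC7 and its activator DBF4 phosphorylates MCM proteins. CDC45 and the GINS complex then join, with TOPBP1 and RECQL4 among the factors that help them on, to complete the active helicase (the CMG complex, for CDC45, MCM and GINS). RIF1 binds the phosphatase PP1, which removes the phosphates that the kinase places on MCM. Embryonic stem cells divide fast and spend much of their cycle in S phase, when these proteins act.

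The libraries held 9185062 to 10980777 counts in the Rif1-KO group and 8383632 to 9218036 in the control group. Levels are given in CPM, the counts of a gene scaled to a fixed library total with TMM factors, and genes were tested with edgeR's quasi-likelihood test. A gene is said to have risen or fallen where its p, adjusted over all 14250 tested genes by the Benjamini-Hochberg method, was under 0.05, with no minimum fold. Adjusted p values are from that test. Rif1 itself stood at 602, 604 and 664 CPM in the Rif1-KO libraries and at 673, 657 and 700.1 CPM in the control libraries, with a log2 fold change of −0.12 ± 0.05 (SE) and an adjusted p of 0.0509. It passed under 8 of 14 alternative settings, and the offset for GC content and transcript length moved it to −0.26 (adjusted p = 2.99e-05). A count over the whole gene does not show whether an exon was lost, so Rif1-KO is used here as the label of the libraries. Genes of embryonic stem cell identity were read strongly in both groups, with summed levels over 10 genes of 6758 to 7075 CPM in the Rif1-KO libraries and 6332 to 6728 CPM in the control libraries. Sums over markers of other cell types differed as well. Over 8 two-cell-like markers they were 37.1 to 39.6 CPM in the Rif1-KO libraries and 0.364 to 0.442 CPM in the control libraries, over 8 trophectoderm markers 236 to 248 against 171 to 173 CPM (Cdx2 was at 0 in all 6 libraries), and over 8 primitive endoderm markers 163 to 167 against 154 to 159 CPM. Over 9 fibroblast markers they overlapped, at 23.7 to 27.9 CPM in the Rif1-KO libraries and 22.7 to 32.9 CPM in the control libraries, with Lum at 0 in all 6. Of the tested genes of these lists, 5 of 10 identity genes rose and 2 fell, and all 8 two-cell-like markers rose. Of 6 primitive endoderm markers 5 rose. Of 5 trophectoderm markers 2 rose and 2 fell, and of 4 fibroblast markers 1 rose and 1 fell. Over all 14250 tested genes 26.1% rose and 24.8% fell. Krt8 (mean 74.2 CPM in Rif1-KO and 22.5 CPM in control libraries) and Krt18 (69.9 and 25.8 CPM) made the trophectoderm sum higher. Tfap2c, listed as Tcfap2c, and Krt7 were the 2 of that list that fell. Most of the primitive endoderm sum was Lamb1 (133 and 140 CPM), which did not pass. Log2 fold changes of the 5 that rose ran from 0.37 ± 0.13 (Gata4) to 1.76 ± 0.15 (Dab2). The 2 identity genes that fell were Sox2 (log2 fold change −0.54 ± 0.05) and Tdgf1 (−0.13 ± 0.04). Those of the 5 identity genes that rose ran from 0.11 ± 0.04 (Nanog) to 0.46 ± 0.09 (Dppa5a). Sums of markers do not count cells, and the part of other cell types in the results on the origin firing genes was not tested.

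Among the origin firing genes, 6 of 10 fell in the Rif1-KO libraries, none rose and 4 did not pass. The 6 that fell were Cdc45, Gins1, Gins2, Gins4, Recql4 and Wdhd1, by 1.19-fold to 1.55-fold. The 4 that did not pass were both subunits of the kinase (Cdc7 and Dbf4), Topbp1 and Gins3. Over all tested genes 50.9% were called in either direction, 24.8% as lower and 26.1% as higher. Among the 8153 tested genes with a mean of at least 19.5 CPM, the level of the least expressed of the 10, 59.7% were called and 32% fell. The share of the 10 called in either direction is thus near the background. In 6 of the 10 genes the libraries of the groups did not overlap in CPM, and 57.2% of all tested genes were apart in the same way. The median log2 fold change was −0.33 over the 10 genes and 0.0035 over all tested genes. The summed level of the 10 genes was 977 to 1016 CPM in the Rif1-KO libraries and 1069 to 1117 CPM in the control libraries. In bulk RNA, fewer cells expressing a gene and less RNA per cell cannot be told apart.

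**Figure D1:**
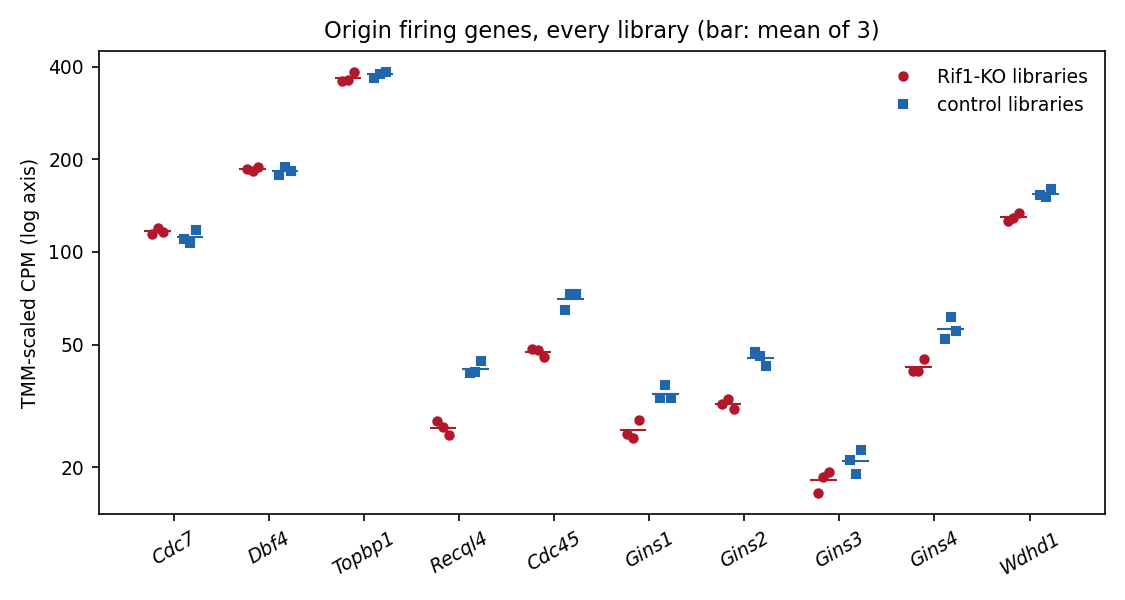
Level of each origin firing gene in every library, in TMM-scaled CPM on a log axis, with Rif1-KO libraries as red circles, control libraries as blue squares and a bar at each mean of 3. The groups are apart for Recql4, Cdc45, Gins1, Gins2, Gins4 and Wdhd1 and overlap for Cdc7, Dbf4, Topbp1 and Gins3.

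The transcripts of the kinase that RIF1 and PP1 oppose differed between the groups by less than the test could call. Cdc7, the catalytic subunit, had 115, 119 and 116 CPM in the Rif1-KO libraries, against 109.9, 107 and 118 CPM in the control libraries. The highest control library lay above 2 of the 3 Rif1-KO libraries, so the groups overlapped. The log2 fold change of Cdc7 was 0.07 ± 0.05 (SE), with a 95% interval of −0.04 to 0.17 and an adjusted p of 0.286. Dbf4, the subunit that activates the kinase and whose protein level varies over the cell cycle, had 186, 183 and 189 CPM in the Rif1-KO libraries, against 178, 189 and 183 CPM in the control libraries. These groups overlapped as well, with a log2 fold change of 0.02 ± 0.04, a 95% interval of −0.07 to 0.12 and an adjusted p of 0.716. An offset for GC content and transcript length turned Dbf4 to −0.11 with an adjusted p of 0.0461, so its direction depends on that choice. Cdc7 did not pass under any of the 14 alternatives, where its log2 fold change ran from 0.0028 to 0.11.

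The balance of the kinase subunits was compared within libraries, where no scaling is needed. The log2 ratio of Dbf4 to Cdc7 counts was 0.70, 0.61 and 0.70 in the Rif1-KO libraries, against 0.69, 0.82 and 0.63 in the control libraries. These ranges overlapped, with a difference of −0.05 between the means (exact two-sided permutation p = 0.6, where 3 against 3 libraries cannot go below 0.1). Control replicate 2, which had the highest ratio, decided the sign, since the difference was 0.0054 without it.

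Of the factors that help to assemble the helicase, Recql4 fell and Topbp1 did not pass. Topbp1, a scaffold protein that bridges firing factors and also activates the checkpoint kinase ATR, had 359, 361 and 383 CPM in the Rif1-KO libraries, against 369, 379 and 385 CPM in the control libraries. Its groups overlapped, with a log2 fold change of −0.04 ± 0.05, a 95% interval of −0.13 to 0.06 and an adjusted p of 0.511. The offset for GC content and length moved Topbp1 to −0.12 with an adjusted p of 0.0159, and it passed under none of the other 13 alternatives. Recql4, a DNA helicase whose N-terminal part resembles the budding yeast firing factor Sld2, had 28.2, 27.1 and 25.4 CPM in the Rif1-KO libraries, against 40.3, 40.7 and 44.1 CPM in the control libraries. Every Rif1-KO library lay below every control library. Recql4 was 1.55-fold lower, the largest decrease among the 10 (log2 fold change −0.63 ± 0.07, adjusted p = 7.18e-07), and 4.4% of all tested genes had a lower log2 fold change. Of its annotated exon bases, 9.72% overlap the gene Mfsd3 on the opposite strand, which was read at 3.81 ± 1.05 CPM in the Rif1-KO libraries and 5.02 ± 1.95 CPM in the control libraries (SD, n = 3 each).

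The subunits that turn MCM into the active helicase were lower, with Gins3 as the exception that did not pass. Cdc45, which sits on the MCM ring in the active helicase, had 48.4, 48.2 and 45.6 CPM in the Rif1-KO libraries, against 64.8, 72.9 and 73.1 CPM in the control libraries. The groups were apart, and Cdc45 was 1.48-fold lower (log2 fold change −0.56 ± 0.06, adjusted p = 3.91e-07). The GINS complex is built from the products of Gins1 (the PSF1 subunit), Gins2 (PSF2), Gins3 (PSF3) and Gins4 (SLD5). Gins1 had 25.6, 24.8 and 28.5 CPM in the Rif1-KO libraries, against 33.4, 36.8 and 33.6 CPM in the control libraries, and was 1.32-fold lower (log2 fold change −0.40 ± 0.08, adjusted p = 0.000338). Gins4 had 41.1, 41.1 and 44.7 CPM in the Rif1-KO libraries, against 52.1, 61.6 and 55.4 CPM in the control libraries, and was 1.33-fold lower (log2 fold change −0.41 ± 0.07, adjusted p = 6e-05). For both genes every Rif1-KO library lay below every control library.

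Gins2 had 32.0, 33.3 and 30.8 CPM in the Rif1-KO libraries, against 47.4, 45.8 and 42.5 CPM in the control libraries, without overlap. It was 1.41-fold lower (log2 fold change −0.50 ± 0.07, adjusted p = 7.92e-06), but its value is less certain than that of the other subunits. In the GENCODE annotation 67.3% of its exon bases overlap Gse1 on the opposite strand, and the strand setting of the counting is not given in the sources used here. Gse1 rose, at 73.5 ± 2.14 CPM in the Rif1-KO libraries and 60.2 ± 3.86 CPM in the control libraries (SD, n = 3 each; log2 fold change 0.29 ± 0.06, adjusted p = 0.000427), so the overlapping genes moved in opposite directions. Gins3, the least expressed of the 10 in CPM, had 16.4, 18.6 and 19.2 CPM in the Rif1-KO libraries, against 21.1, 19.0 and 22.7 CPM in the control libraries. Rif1-KO replicate 3 lay above control replicate 2, and no other pair crossed between its groups. Its log2 fold change was −0.22 ± 0.10 with a 95% interval of −0.42 to −0.0095, while the adjusted p was 0.0751. With control replicate 2 left out, Gins3 passed (log2 fold change −0.28, adjusted p = 0.0369), as it did in the fit lacking Rif1-KO replicate 3 (log2 fold change −0.26, adjusted p = 0.0476). It passed under none of the other 12 alternatives.

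Whether the GINS subunits changed unequally was tested with the log2 ratio of each to the mean of the other 3 within a library. The ratio of Gins3 was −0.97, −0.80 and −0.82 in the Rif1-KO libraries, against −1.04, −1.31 and −0.92 in the control libraries, a difference of 0.23. The ratio of Gins2 differed by −0.16, that of Gins4 by −0.05 and that of Gins1 by −0.02. The ranges of the groups overlapped for all 4 genes. The exact two-sided permutation p was 0.2 for Gins3, 0.3 for Gins2, 0.8 for Gins4 and 0.9 for Gins1, with 0.1 the smallest raw value that the design allows. After Benjamini-Hochberg adjustment over the 4 genes these exact p values were 0.6, 0.6, 0.9 and 0.9. With 3 libraries a group this test could not reach 0.05, so whether Gins3 responded differently from the other subunits is not settled by it.

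Wdhd1, known as AND-1 and related to budding yeast Ctf4, couples the helicase to DNA polymerase alpha. It had 126, 129 and 134 CPM in the Rif1-KO libraries, against 153, 150.3 and 160.3 CPM in the control libraries. The Rif1-KO libraries all lay below the control libraries, and the decrease of 1.19-fold was the smallest of the 6 that passed (log2 fold change −0.26 ± 0.05, adjusted p = 0.000157). The annotation gives 4.68% of its exon bases as shared with Gm49150 on the opposite strand, and 5.96% of those of Cdc45 as shared with Ufd1. Under its older symbol Ufd1l, Ufd1 stood at 43.5 ± 3.86 CPM in the Rif1-KO libraries and 43.7 ± 3.34 CPM in the control libraries (SD, n = 3 each).

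**Figure D2:**
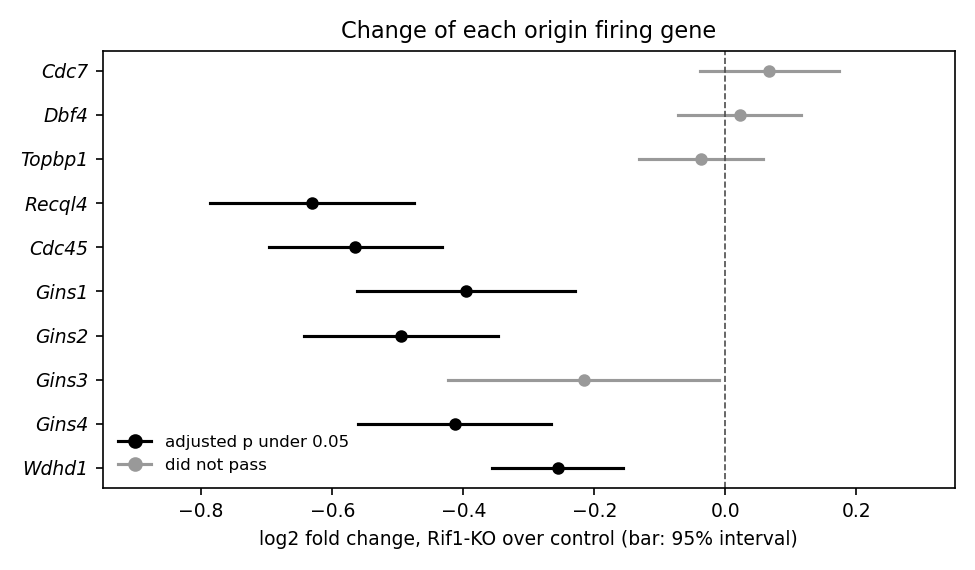
Log2 fold change of each origin firing gene, Rif1-KO over control, with its 95% interval from edgeR's quasi-likelihood fit of 3 against 3 libraries; black marks genes with an adjusted p under 0.05 and grey those that did not pass. Cdc7, Dbf4 and Topbp1 lie between −0.04 and 0.07, and Recql4 and Cdc45 are the lowest.

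The 6 genes that fell were lower relative to the kinase subunits inside each library. This comparison was chosen after the values were seen and is given without a test. The 6 were already apart between the groups in CPM and Cdc7, Dbf4 and Topbp1 were not, so it adds no separate support. The log2 ratio of Cdc45 to Cdc7 counts was −1.35 to −1.24 in the Rif1-KO libraries and −0.76 to −0.55 in the control libraries. The ratio of Recql4 to Cdc7 was −2.19 to −2.02 in the Rif1-KO libraries and −1.44 to −1.39 in the control libraries. For each of the 6 genes the ratios to Cdc7, to Dbf4 and to Topbp1 did not overlap between the groups. In CPM 57.2% of all tested genes were apart, and the share of genes apart in these ratios was not computed. For Gins3 the ratios did not overlap relative to Cdc7 but did relative to Dbf4 and Topbp1. The upper end of the 95% interval of Wdhd1, −0.16, lies below the lower ends of Cdc7 (−0.04), Dbf4 (−0.07) and Topbp1 (−0.13).

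Levels of different genes were compared per length of transcript. Divided by the length of the principal GENCODE transcript, the level of Dbf4 was the highest of the 10, with 77.3 ± 1.19 CPM per kilobase in the Rif1-KO libraries and 76.2 ± 2.23 in the control libraries (SD, n = 3 each). Topbp1 followed with 70.4 ± 2.60 CPM per kilobase in the Rif1-KO libraries and 72.2 ± 1.56 in the control libraries. In the Rif1-KO libraries Cdc7 was the next, at 37.3 CPM per kilobase, followed by Gins4 (31.4), Wdhd1 (30.4), Gins1 (24.2) and Cdc45 (22.1), and Gins4 and Wdhd1 were the neighbours among these whose libraries overlapped. In the control libraries Gins4 (41.8 CPM per kilobase) was the next, and Wdhd1 (36.3), Cdc7 (35.6), Cdc45 (32.8) and Gins1 (31.8) followed. There Gins4 lay apart from Wdhd1, while Wdhd1 overlapped with Cdc7, Cdc7 with Cdc45 and Cdc45 with Gins1. Gins2 had 8.22 CPM per kilobase in the Rif1-KO libraries and 11.6 in the control libraries, and Gins3 had 7.18 and Recql4 6.90 in the Rif1-KO libraries, against 8.30 and 10.7 in the control libraries. Gins3 and Recql4 overlapped in the Rif1-KO libraries, and Gins2 and Recql4 in the control libraries. The level of Gins2 depends on how reads in its overlap with Gse1 were counted, which is not given. The order depends on the length used. With all annotated exons as the length, Dbf4 stood at 21.3 CPM per kilobase in the Rif1-KO libraries and 21.0 in the control libraries, below Gins4 with 31.4 CPM per kilobase in the Rif1-KO libraries and 41.8 in the control libraries.

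RefSeq promoters (build GRCm38.p6) were at hand for 6 of the 10 genes, and not for Gins1, Gins2, Gins4 and Recql4. The 250 bases before each start were searched on both strands for letters bound by cell cycle factors. For E2F these were TTCCCGC and the variants TTGGCGC and TTCGCGC. For NF-Y the letters were CCAAT, and for the cell cycle genes homology region (CHR), an element of cell cycle promoters, they were TTTGAA. E2F letters are held by 6.69% of the 32851 promoters of the table, CCAAT by 33.85% and CHR letters by 15.99%. The 150 bases before the start are shown for the 4 genes with a match, with matches in capitals, so that Cdc45, which fell, can be read beside genes that did not pass. The stretches are chr16:18811973-18812122 (minus strand) for Cdc45, chr8:95633409-95633558 (plus strand) for Gins3, chr9:103305177-103305326 (plus strand) for Topbp1 and chr5:106964411-106964560 (plus strand), before the second of the pair of starts listed for Cdc7.
Cdc45: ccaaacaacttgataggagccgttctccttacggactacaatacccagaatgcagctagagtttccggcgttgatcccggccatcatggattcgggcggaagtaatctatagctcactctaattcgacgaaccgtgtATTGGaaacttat
Gins3: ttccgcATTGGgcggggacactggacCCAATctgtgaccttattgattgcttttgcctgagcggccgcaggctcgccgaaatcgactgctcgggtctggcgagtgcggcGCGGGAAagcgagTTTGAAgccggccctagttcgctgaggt
Topbp1: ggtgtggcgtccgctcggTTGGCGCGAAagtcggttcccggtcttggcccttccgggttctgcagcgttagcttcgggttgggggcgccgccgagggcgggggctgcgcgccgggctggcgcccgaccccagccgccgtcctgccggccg
Cdc7: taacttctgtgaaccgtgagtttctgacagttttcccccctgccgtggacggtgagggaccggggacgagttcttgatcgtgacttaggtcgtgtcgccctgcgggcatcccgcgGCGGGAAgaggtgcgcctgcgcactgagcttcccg
Gins3 held E2F letters at −41 to −35 from the start and CHR letters at −28 to −23, with CCAAT letters at −144 to −140 and −124 to −120. Topbp1 held overlapping E2F matches at −132 to −126 and −129 to −123, and the second start of Cdc7 held one at −35 to −29. Cdc45 held CCAAT letters at −13 to −9, and CHR letters at −240 to −235, outside the stretch shown. E2F letters again stood at −226 to −220 and CHR letters at −237 to −232 before the second start of Cdc7. Dbf4, Wdhd1 and the first start of Cdc7 held none of these letters in the 250 bases. The genes with E2F letters in this window were thus 3 that did not pass, a description of 6 genes and not a test.

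The rest of the firing and fork pathway was lower on balance. Of 34 genes outside the 10, 26 fell, Orc4 rose and 7 did not pass, with a median log2 fold change of −0.30. Over all tested genes 24.8% fell, and 32% of the 8153 with a mean of at least 19.5 CPM. The same shares stand beside the counts of the lists that follow. Among 12 partners in firing, 8 fell and 4 (Donson, Pole3, Pole4 and Ccne2) did not pass. Ccne1, the cyclin E1 gene whose product activates CDK2 at the start of S phase, had the largest decrease of the 12, with 43.5 ± 2.999 CPM in the Rif1-KO libraries and 72.8 ± 1.05 CPM in the control libraries (SD, n = 3 each; log2 fold change −0.74 ± 0.06, adjusted p = 6.34e-09). Ticrr, which encodes the TOPBP1 partner treslin and is listed under its older symbol 5730590G19Rik, had 97.4 ± 5.86 CPM in the Rif1-KO libraries and 129.5 ± 1.38 CPM in the control libraries (log2 fold change −0.41 ± 0.05, adjusted p = 1.52e-06). Mcm10, which acts as the helicase starts to unwind, had a log2 fold change of −0.38 ± 0.04, and Pole, the catalytic subunit of DNA polymerase epsilon, one of −0.31 ± 0.05.

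The 6 MCM genes, which encode the ring that the kinase phosphorylates, all fell, with a median of −0.49. Mcm5 (−0.55 ± 0.05), Mcm3 (−0.55 ± 0.04), Mcm7 (−0.53 ± 0.04) and Mcm2 (−0.44 ± 0.04) had the lowest adjusted p values of the 6. The log2 fold changes of the 6 ran from −0.55 to −0.27, beside −0.56 for Cdc45. Of 9 licensing genes 5 fell, among them the loading factors Cdc6 (−0.80 ± 0.06) and Cdt1 (−0.58 ± 0.05) and the origin recognition subunit Orc2 (−0.30 ± 0.05), while Orc4 rose by 0.30 ± 0.05 on the log2 scale and 3 did not pass. All 7 genes of fork protection and priming fell, with a median of −0.44. They include Timeless (−0.59 ± 0.05) and its partner Tipin (−0.45 ± 0.05), Prim1 of the primase (−0.54 ± 0.05) and Pola2 (−0.44 ± 0.05), a subunit of the polymerase that Wdhd1 binds. On the phosphatase side, the PP1 catalytic subunit genes Ppp1cc (−0.50 ± 0.06, adjusted p = 1.65e-06) and Ppp1ca (−0.24 ± 0.05, adjusted p = 0.00031) fell, and Ppp1cb rose (0.11 ± 0.04, adjusted p = 0.0425).

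**Figure D3:**
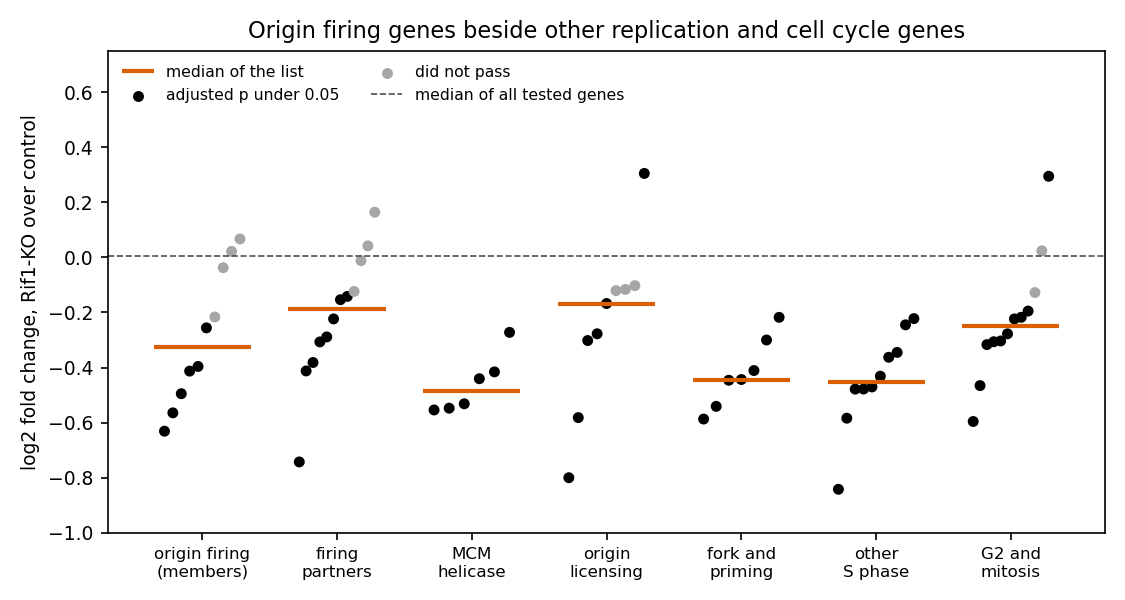
Log2 fold change, Rif1-KO over control, of each tested gene in 7 lists, with the list's median as an orange bar and the median of all tested genes as a dashed line; black points have an adjusted p under 0.05 and grey points did not pass. The medians are −0.33 for the origin firing genes and −0.49 for the MCM genes, and each of the 7 lists has a median below 0.

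Genes of the cell cycle outside replication initiation moved with these lists. All 10 other S phase genes fell, with a median of −0.45, among them the nucleotide enzymes Rrm1 (−0.47 ± 0.05) and Rrm2 (−0.43 ± 0.05), the uracil glycosylase gene Ung (−0.84 ± 0.06) and the histone chaperone gene Chaf1b (−0.48 ± 0.05). Of 12 genes of G2 and mitosis, 9 fell, Cdc20 rose (0.29 ± 0.06) and 2 did not pass, with a median of −0.25. Top2a fell by 0.60 ± 0.04 on the log2 scale, and the mitotic genes Aurkb, Ccnb2 and Ccnb1 had log2 fold changes of −0.47 ± 0.06, −0.32 ± 0.05 and −0.31 ± 0.05. The summed level of the S phase list was 1738 to 1749 CPM in the Rif1-KO libraries and 2289 to 2315 CPM in the control libraries, and that of the G2 and mitosis list was 2359 to 2483 CPM in the Rif1-KO libraries and 2968 to 3060.3 CPM in the control libraries. The share of cells in each phase was not measured, and its part in the lower levels of the origin firing genes was not tested.

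The log2 fold changes of the 10 genes were lower, for the most part, the higher the GC content of their transcripts. The 3 with the smallest changes had a GC content of 39.1% (Dbf4), 43.8% (Cdc7) and 46.4% (Topbp1), and the 2 with the highest GC content were Recql4 (57.7%) and Gins2 (53.4%). Spearman's rho between GC content and log2 fold change was −0.89 and Pearson's r −0.85 over the 10 genes, which share the same 6 libraries, given as a description. Over 13937 tested genes with a GC value the rho was −0.15, and the median log2 fold change ran from 0.10 in the lowest of 10 GC bins to −0.07 in bin 8. Cdc45 differed from the median of its GC bin by −0.57 on the log2 scale, Recql4 by −0.57, Gins2 by −0.45, Gins1 by −0.41, Gins4 by −0.37 and Wdhd1 by −0.31. Gins3 differed by −0.23, Topbp1 by −0.05, Dbf4 by −0.08 and Cdc7 by −0.01. When the fit held an offset for GC and length, 8 of the 10 fell. Over all 13937 genes tested in that fit, 7214 were called and 3603 fell. The log2 fold changes were then −0.55 for Cdc45 (adjusted p = 9.21e-07), −0.56 for Recql4 (adjusted p = 3.38e-06) and −0.32 for Wdhd1 (adjusted p = 6.67e-06).

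**Figure D4:**
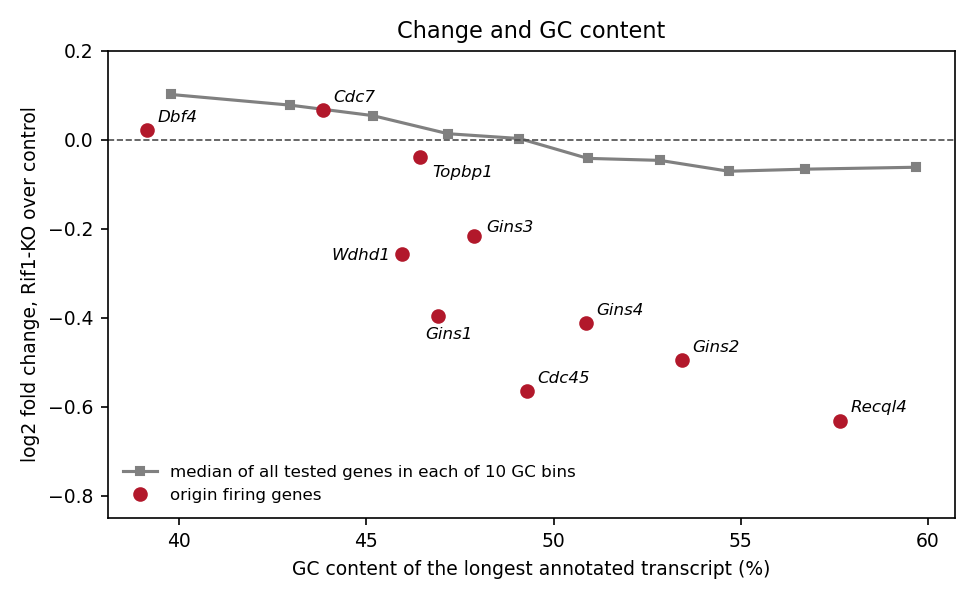
Log2 fold change, Rif1-KO over control, of the 10 origin firing genes (red circles) against the GC content of the longest annotated transcript in percent, with the median of all tested genes in 10 GC bins as grey squares. Recql4, with the highest GC content of the 10, has the lowest log2 fold change, and Dbf4, Cdc7 and Topbp1 lie within 0.10 of their bin medians.

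Counts of the 10 genes per library ran from 156 for Gins3 to 3968 for Topbp1. The counting error of 1 library at the lowest count is 8.01% for Gins3 and 1.79% for Topbp1, and the SE of the log2 fold change was 0.10 for Gins3, the largest of the 10, and 0.05 for Topbp1. The genes whose profile over the 6 libraries was most like that of Cdc7, by the Euclidean distance of centred log2 CPM among 14150 genes, were Ints8 (0.052), Actr10 (0.053) and Yme1l1 (0.062). For Dbf4 they were Plp2 (0.024), Shfm1 (0.025) and Krr1 (0.027). None of these 6 passed the test, with log2 fold changes of 0.01 to 0.08. Since they were picked for likeness to Cdc7 and Dbf4 over the same libraries, small changes follow from the choice.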

How the data were processed

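RNA of 6 E14 libraries (3 labelled Rif1-KO and 3 labelled control) was analysed from the raw read counts per gene symbol that the authors deposited, 1 table per library, without normalization. Per the submitters' processing notes the reads went through STAR and featureCounts 1.6.2, with mm9 as the build. The annotation, strand setting and rule for multi-mapped reads are not stated there. An mRNA library kit was used on 200 ng of RNA, per the labels' protocols. The labels number the replicates without naming separate cultures, and p-values then reflect the spread of these samples alone, which may be technical.

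Here the counts were filtered with filterByExpr, scaled with TMM and tested with edgeR 4.0.16 in R 4.3.3 (quasi-likelihood test, group as the only term, Benjamini-Hochberg adjustment over all tested genes). Standard errors are the log2 fold change over the root of the F value, and 95% intervals use the test's degrees of freedom. The test was checked on simulated data, but the outcome is not reported here and cannot show whether the replicates are technical. CPM are counts over TMM-scaled library sizes. Alternatives were DESeq2 1.42.0, limma-voom (limma 3.58.1), other scalings and filters, a replicate block, an offset for GC content and length (mgcv 1.9.3, values for 97.8% of tested genes), and leaving out each library. Ratios within libraries used counts plus 0.5 and an exact permutation test. Libraries of a group were compared by a chi-square test of their counts, with values per degree of freedom of 1.27 (Rif1-KO replicates 1 and 2) to 4.22, and each was counted as a sample.

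Lengths, GC content and overlaps come from GENCODE M21 (GRCm38), another build than that of the counts, used by gene name only. Listed genes missing from the tables were looked up under older symbols from RefSeq. Named genes are all 10 members, Rif1, and up to 4 that passed, by adjusted p, from each other list except those of cell type markers. Genes that overlap a member, and 4 that did not pass among the firing partners, were named after their values were seen. So were Cdc20, the gene of its list that rose, and Cdx2 and Lum, which were at 0. The other cell type markers named were likewise chosen after their values were seen. The members and lists were chosen with earlier results of these data known.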

Additional observations from a re-analysis of the deposited data

How the results depend on the processing

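The count of genes called lay within 1.5 times its value of 7251 under all 14 alternatives, from 5908 (DESeq2) to 7583 (no filter on low counts). The tested sets differed in size, so these counts are not shares of the same set. They held 14250 genes in the main fit and in DESeq2 and 24017 with no filter. With a mean of at least 5 CPM, 6211 of 11183 were called. Of the 10 origin firing genes, 6 fell in all but 3 of the alternatives. The exceptions were 8 with the GC and length offset, 7 without control replicate 2 and 7 without Rif1-KO replicate 3. Over all tested genes 3603 of 13937, 3203 of 14593 and 3432 of 14492 fell in these fits, in that order. None of the 10 rose under any of the 14. Cdc45, Gins1, Gins2, Gins4, Recql4 and Wdhd1 passed under all 14. Dbf4 reversed with the GC and length offset (log2 fold change −0.11, adjusted p = 0.0461), and ran from −0.00096 (without control replicate 1) to 0.040 when each library was left out. The number of the 34 other pathway genes called ran from 25 to 28 when each library was left out, against 27 in all. The count of all genes then ran from 6368 to 7099. The difference of the Dbf4 to Cdc7 ratio ran from −0.089 to 0.0054 (without control replicate 2) when each library was left out. Those of the GINS ratios ran from −0.065 to 0.025 for Gins1 (also positive, at 0.018, without control replicate 2), −0.21 to −0.08 for Gins2, 0.12 to 0.31 for Gins3 and −0.11 to 0.025 for Gins4. Adding 2 counts in place of 0.5 kept the sign of all 5 differences. With the replicate number as a block, 7386 genes were called, 6 of the 10 fell and 27 of the 34 were called, and none of the 10 changed its call, while Rif1 passed (log2 fold change −0.12, adjusted p = 0.0227). Deviations of same-numbered libraries correlated at 0.10, −0.08 and 0.06, and those of differently numbered libraries at −0.19 to 0.14. A weak pairing would not show in so few values, so pairing by number is not settled. The cause of these shifts was not tested. Gins3 had the fewest counts of the 10, 156 to 205 per library, and the widest interval.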
